A study of Mus musculus with 12 samples.

Results

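The 10 genes described here encode phosphatases that switch off mitogen-activated protein (MAP) kinases: Dusp1, Dusp2, Dusp4, Dusp5, Dusp6, Dusp7, Dusp8, Dusp10, Dusp14 and Dusp16. They were taken by symbol from a table of 54232 genes, and all 10 were found and passed the filter on low counts. RNA was sequenced from RAW264.7 cells, a mouse macrophage line, as 12 libraries in 6 groups of 2. The groups were Socs1-/- cells, Ing4-/- cells and wild-type (WT) cells of the same line, each given 100 ng/ml lipopolysaccharide (LPS) for 3 h or left untreated. The labels' treatment text names HEK293T, a human kidney line, but the gene identifiers are of mouse and macrophage markers were abundant. How the knockouts were made, and whether each is 1 clone, is not given in the labels. Nor do they state that libraries of the same group are separate cultures, so the p-values reflect spread among these libraries alone, which may be technical.

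MAP kinases carry signals from receptors such as TLR4, which senses LPS, through a relay of kinases to ERK, JNK and p38. A MAP kinase is active while both a threonine and a tyrosine in its activation loop are phosphorylated, and dual-specificity phosphatases (DUSPs) remove both phosphates. Many DUSP genes are themselves switched on by MAP kinase signalling, which makes them classic negative feedback genes. In macrophages they are best known for limiting how strongly and how long cytokine genes respond to bacterial products. Dusp1, Dusp2, Dusp4 and Dusp5 encode nuclear enzymes, Dusp6 and Dusp7 encode cytoplasmic enzymes that prefer ERK, Dusp8, Dusp10 and Dusp16 encode enzymes that prefer JNK and p38, and Dusp14 encodes a small atypical member without the domain that docks MAP kinases.

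The libraries held 17250815 to 24377950 counts. The 12 macrophage markers had a summed level of 13120.7 to 24669.4 CPM (counts scaled to a common library size). Lyz2 alone held 6612 to 17000 CPM. All were detected in every library but Mertk, which was at 0 in 2 libraries and at most 7.1 CPM. Neutrophil markers summed to 0.698 to 3.27 CPM with 5 of 8 at 0 in every library, T, B and NK cell markers to 0 to 0.348 CPM with 6 of 9 at 0, and fibroblast, epithelial and kidney markers to 0 to 0.169 CPM with 8 of 9 at 0. On the first principal component (54.4% of the variance of log2 CPM) the untreated libraries lay between -66.1 and -41.7 and 5 LPS libraries between 62.4 and 74.4, but the first LPS-treated Socs1-/- library, called the outlying library here, lay at -16.2. The LPS changes and the lists are therefore also given with it left out, and so are the differences of LPS-treated Socs1-/- from WT cells that are described. With the outlying library or its partner left out, the LPS-treated Socs1-/- group is 1 library, which is assumed to vary like the others. The targeted transcripts did not check the genotypes: Ing4 had 3 to 28 counts per library in Socs1-/- cells, 6 to 29 in Ing4-/- cells and 2 to 10 in WT cells. Socs1 after LPS had 67 and 127 counts in Socs1-/- cells, 185 and 148 in Ing4-/- cells and 169 and 179 in WT cells. In bulk RNA, a change in the share of responding cells and a change in RNA per cell cannot be told apart.

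The RefSeq promoters (GRCm38.p6) of 5 members are shown because, with all 12 libraries, these members had the largest fitted LPS changes in Ing4-/- and WT cells, and with Dusp4 also in Socs1-/- cells. Each runs 5′ to 3′ in a window of 300 bases that ends 50 bases into the gene, whose first base counts as 1. Capitals mark the cyclic AMP response element TGACGTCA and its core TGACG on either strand, the E-box CACGTG, and the CArG box bound by serum response factor. The windows are chr17:26508423-26508722 (minus strand, Dusp1), chr2:127335909-127336208 (plus strand, Dusp2), chr19:53528895-53529194 (plus strand, Dusp5), chr7:142095235-142095534 (minus strand, Dusp8) and chr6:134792579-134792878 (minus strand, Dusp16). Those of Dusp1 and Dusp8 lie inside the longer GENCODE gene.
Dusp1: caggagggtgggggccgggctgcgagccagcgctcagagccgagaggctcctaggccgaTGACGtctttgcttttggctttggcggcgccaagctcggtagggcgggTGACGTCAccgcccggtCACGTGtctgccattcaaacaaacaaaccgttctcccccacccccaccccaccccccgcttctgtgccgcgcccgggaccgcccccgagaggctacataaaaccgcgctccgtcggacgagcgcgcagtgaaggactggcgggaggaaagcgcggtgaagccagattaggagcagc
Dusp2: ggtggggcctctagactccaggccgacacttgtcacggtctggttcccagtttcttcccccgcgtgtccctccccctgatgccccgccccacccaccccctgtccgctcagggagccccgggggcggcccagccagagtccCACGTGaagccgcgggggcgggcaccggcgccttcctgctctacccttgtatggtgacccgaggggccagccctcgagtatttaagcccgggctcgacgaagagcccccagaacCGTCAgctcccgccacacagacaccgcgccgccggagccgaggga
Dusp5: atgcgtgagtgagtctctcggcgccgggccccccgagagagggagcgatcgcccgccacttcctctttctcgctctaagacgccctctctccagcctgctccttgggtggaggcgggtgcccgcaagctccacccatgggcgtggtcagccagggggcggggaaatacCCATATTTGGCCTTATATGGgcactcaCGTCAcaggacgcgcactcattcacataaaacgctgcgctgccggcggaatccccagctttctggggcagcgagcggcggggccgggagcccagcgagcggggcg
Dusp8: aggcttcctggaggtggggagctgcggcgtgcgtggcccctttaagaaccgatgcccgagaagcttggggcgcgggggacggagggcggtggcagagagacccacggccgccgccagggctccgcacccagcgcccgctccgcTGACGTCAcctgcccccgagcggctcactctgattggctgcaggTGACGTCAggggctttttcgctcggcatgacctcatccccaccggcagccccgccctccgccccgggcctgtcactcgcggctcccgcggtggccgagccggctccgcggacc
Dusp16: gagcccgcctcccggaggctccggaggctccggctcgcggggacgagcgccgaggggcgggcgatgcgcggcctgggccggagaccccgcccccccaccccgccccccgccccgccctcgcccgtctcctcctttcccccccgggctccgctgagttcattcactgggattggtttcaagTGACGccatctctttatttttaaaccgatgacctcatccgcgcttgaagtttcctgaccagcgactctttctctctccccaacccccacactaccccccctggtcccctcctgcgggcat

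RefSeq promoters were at hand for 9 of the 10 members, all but Dusp4, and both strands were searched. The full TGACGTCA stood once in the Dusp1 promoter, at -143 to -136, and at 2 places in that of Dusp8, at -107 to -100 and -63 to -56. This element was in 1.79% of the 32851 RefSeq promoters of the same length and in 2 of the 9 member promoters. The core TGACG, which each full element contains, was in 5 of the 9 (Dusp1, Dusp2, Dusp5, Dusp8 and Dusp16), against 20.8% of all promoters. Dusp5 alone among the 9 held CArG boxes, 2 side by side at -82 to -73 and -72 to -63, and 1.63% of all promoters held at least 1. CACGTG was in the Dusp1 and Dusp2 windows and in 7.15% of all promoters. No member window held the AP-1 letters TGANTCA (7.81% of all promoters), TATAAA (13.6%) or the one form of the NF-kB motif that was searched (4.51%), and looser forms of it were not searched. The windows of Dusp6, Dusp7, Dusp10 and Dusp14, which are not shown, held none of the motifs searched. The promoters compared were not matched for base composition. These matches describe letters in a short window, not binding.

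**Figure D1:**
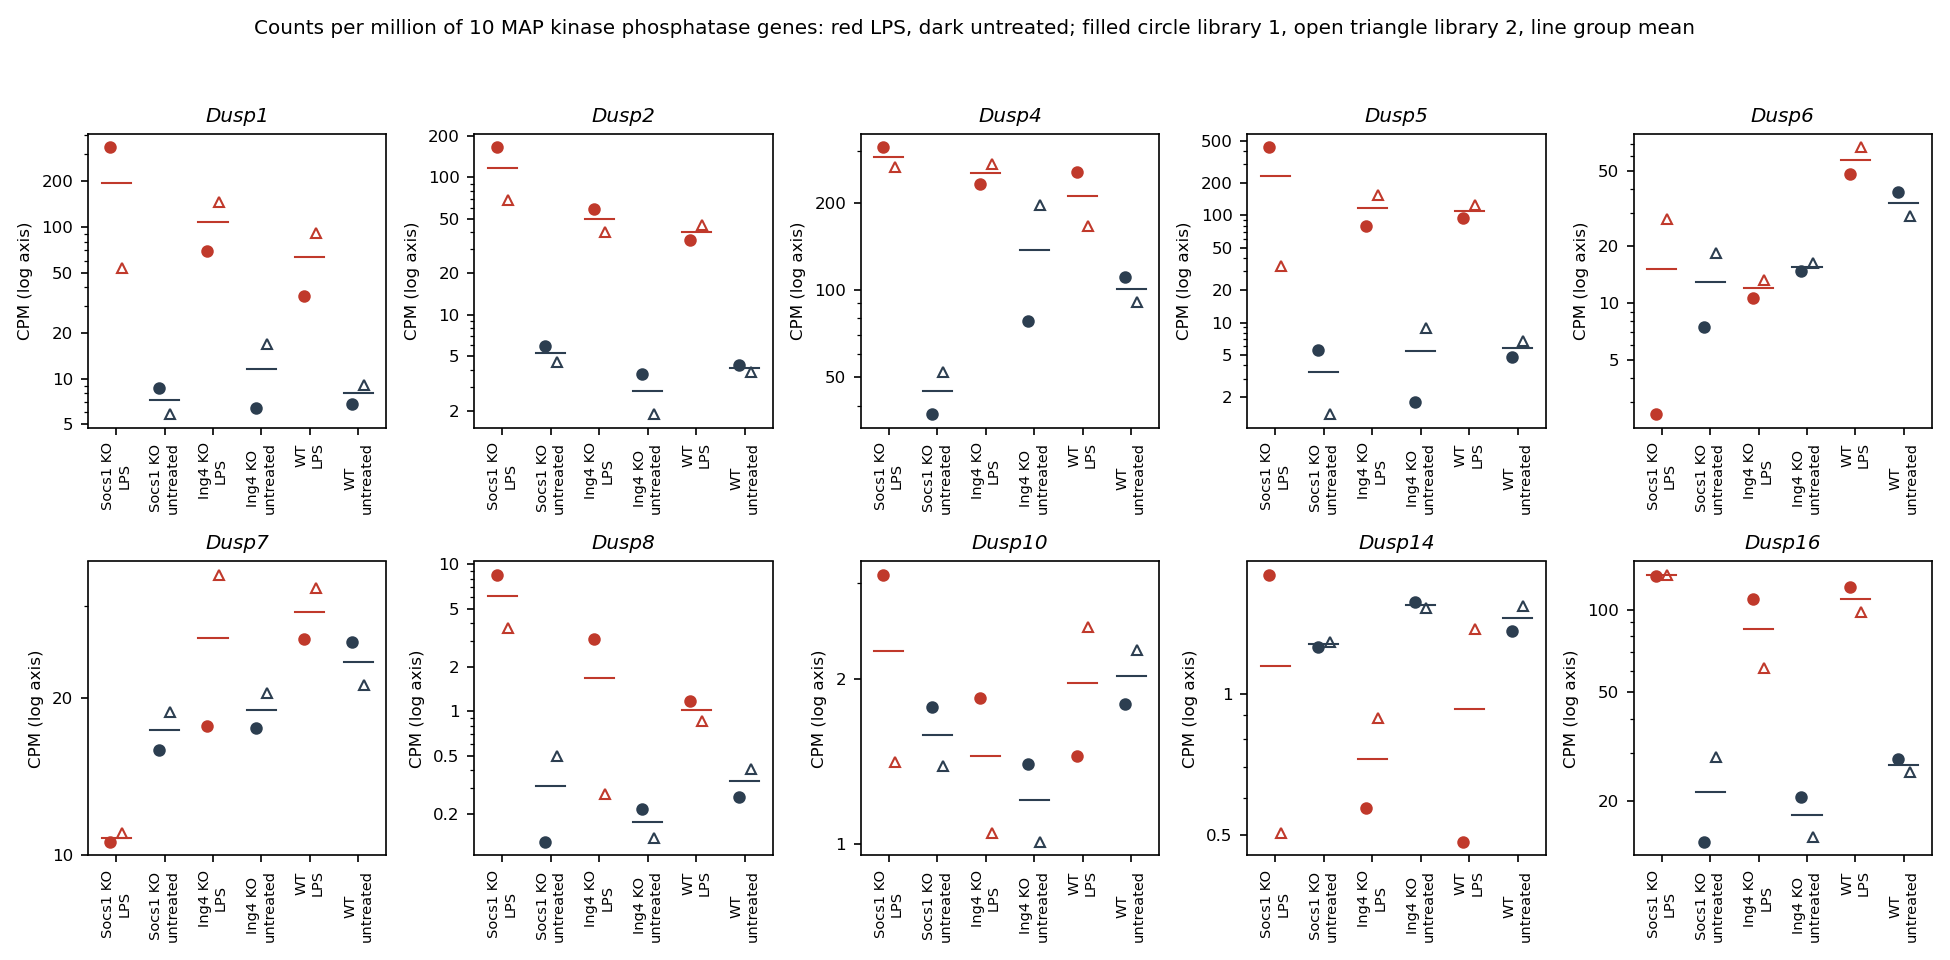
CPM (log axes, which differ between panels) of the 10 genes in each library, with LPS-treated groups in red and untreated groups in dark, library 1 as a filled circle, library 2 as an open triangle and the group mean as a line. Dusp1, Dusp2, Dusp5 and Dusp16 sit higher in all 6 LPS libraries than in any untreated one, and the LPS-treated Socs1-/- libraries lie far apart for Dusp1, Dusp5 and Dusp6.

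LPS raised a subset of these genes in all 3 genotypes. Dusp2, a nuclear phosphatase first known from activated lymphocytes, and Dusp16, which acts on JNK and p38, rose in Socs1-/-, Ing4-/- and WT cells. Dusp4 rose in Socs1-/- cells. Dusp1 and Dusp5 had larger fold changes than Dusp16, but their LPS-treated Socs1-/- libraries disagreed and neither passed the test with all 12 libraries. By edgeR's quasi-likelihood test at an adjusted p of 0.05, 3 of 10 members rose in Socs1-/- cells (1.57% of all 12771 tested genes did), 2 of 10 in Ing4-/- cells (4.73%) and 2 of 10 in WT cells (1.89%). None fell, and few of all tested genes did (0.407%, 3.29% and 1% in these genotypes). With the outlying library left out, 5, 4 and 4 members rose, beside 9.03%, 11.2% and 7.79% of 13262 tested genes. With its partner left out instead, 5, 4 and 4 also rose, beside 1.53%, 11.1% and 7.75% of 13293 tested genes. Same-numbered LPS-treated and untreated libraries of 1 genotype deviated together, and with the replicate number as a block within genotype 6, 4 and 4 members rose, beside 4.39%, 15.2% and 8.28% of tested genes. That block added Dusp1 and Dusp5 in all 3 genotypes and Dusp8 in Socs1-/- cells, and it ended no call of a member. In a fit to the Socs1-/- groups alone none of the members was called there (edgeR adjusted p = 0.3 for Dusp2, 0.23 for Dusp4 and 0.37 for Dusp16). The share of all tested genes called by that fit was not counted. The median log2 change of the 10 was 2.66 in Socs1-/- cells, 1.57 in Ing4-/- cells and 1.33 in WT cells, while the median of all tested genes was 0.01, 0 and 0.01. Without the outlying library the medians of the 10 were 2.61, 1.57 and 1.33.

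Dusp2 (ENSMUSG00000027368, GRCm38 chromosome 2, 127336159 to 127338376, plus strand) rose in all 3 genotypes. It had 165.1 and 68.9 CPM in LPS-treated Socs1-/- cells, against 5.98 and 4.58 in untreated ones. In Ing4-/- cells it had 58.8 and 40.2 CPM after LPS, against 3.71 and 1.89 untreated. WT cells held 35.3 and 44.8 CPM after LPS, against 4.35 and 3.85 untreated. No LPS library overlapped an untreated one, and the first LPS-treated Socs1-/- library was the highest of all. The log2 change was 4.47 in Socs1-/- cells (SE 0.486, edgeR adjusted p = 0.0031), 4.14 in Ing4-/- cells (SE 0.486, adjusted p = 0.0032) and 3.29 in WT cells (SE 0.466, adjusted p = 0.01). Leaving out the outlying library gave 3.70 in Socs1-/- cells (SE 0.363, edgeR adjusted p = 0.00041), and all 3 rises passed. The WT call was lost without WT untreated library 1 (adjusted p = 0.14), WT untreated library 2 (0.14) or WT LPS library 2 (0.069), and the Socs1-/- call without Socs1-/- untreated library 2 (0.051).

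Dusp16 (ENSMUSG00000030203, chromosome 6, 134715468 to 134792625, minus strand) also rose in all 3 genotypes, by a smaller fold than Dusp2. In LPS-treated Socs1-/- cells it stood at 133.5 and 134.4 CPM, against 14.2 and 28.9 in untreated ones. LPS-treated Ing4-/- cells had 109.7 and 61.2 CPM, against 20.8 and 14.8 untreated. The WT values were 121.3 and 98.6 CPM after LPS, against 28.6 and 25.6 untreated. All 6 LPS libraries lay above all 6 untreated ones, and here the LPS-treated Socs1-/- pair differed by 1.01-fold. The log2 change was 2.64 in Socs1-/- cells (SE 0.378, edgeR adjusted p = 0.0096), 2.26 in Ing4-/- cells (SE 0.373, adjusted p = 0.013) and 2.02 in WT cells (SE 0.369, adjusted p = 0.031). All 3 still passed with the outlying library left out (adjusted p = 0.0052, 0.0046 and 0.0094). Leaving out any 1 of the 4 WT libraries ended the WT call (adjusted p = 0.11 to 0.23). The Ing4-/- call ended without untreated library 1 (0.074), untreated library 2 (0.11) or LPS library 1 (0.063), and the Socs1-/- call without untreated library 1 (0.061).

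Dusp1 (ENSMUSG00000024190, chromosome 17, 26505590 to 26562128, minus strand) encodes MKP-1, the founding member, which prefers p38 and JNK. LPS-treated Socs1-/- cells had 333.7 and 53.6 CPM, against 8.72 and 5.82 in untreated ones. In Ing4-/- cells it had 69.1 and 145.9 CPM after LPS, against 6.45 and 16.8 untreated. In WT cells the levels were 35.2 and 90.6 CPM after LPS, against 6.85 and 9.15 untreated. Every LPS library was above every untreated library, but LPS libraries of 1 group differed by 2.11-fold or more. The log2 change was 4.73 in Socs1-/- cells (SE 0.968, edgeR adjusted p = 0.051), 3.21 in Ing4-/- cells (SE 0.901, adjusted p = 0.064) and 2.98 in WT cells (SE 0.898, adjusted p = 0.11). None of these passed. When the outlying library was left out all 3 passed, at 2.88 (SE 0.709, adjusted p = 0.032), 3.21 (SE 0.639, 0.011) and 2.98 (SE 0.639, 0.02). With its partner left out instead, all 3 passed as well, at 5.51, 3.21 and 2.98 (adjusted p = 0.011, 0.011 and 0.019), so the size in Socs1-/- cells rests on which library is kept. The replicate block within genotype called all 3 too, at 4.28 in Socs1-/- (SE 0.569, edgeR adjusted p = 0.021), 3.26 in Ing4-/- (SE 0.523, 0.017) and 2.85 in WT cells (SE 0.526, 0.032). The exons of Dusp1 share 11 bases with the antisense gene Ergic1, 0.332% of its merged exon length.

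Dusp5 (ENSMUSG00000034765, chromosome 19, 53529109 to 53542431, plus strand), a nuclear phosphatase specific for ERK, had the largest fold changes of the 10 in every genotype with all 12 libraries. It reached 431.6 and 33.9 CPM in LPS-treated Socs1-/- cells, against 5.51 and 1.39 in untreated ones. In Ing4-/- cells it had 79.5 and 153.5 CPM after LPS, against 1.83 and 8.99 untreated. WT cells had 95.2 and 125 CPM after LPS, against 4.79 and 6.7 untreated. The groups did not overlap, and the LPS-treated Socs1-/- pair held both the highest and the lowest of the 6 LPS values. The log2 change was 6.06 in Socs1-/- cells (SE 1.34, edgeR adjusted p = 0.067), 4.43 in Ing4-/- cells (SE 1.24, adjusted p = 0.064) and 4.26 in WT cells (SE 1.23, adjusted p = 0.1), a 19.2-fold difference in WT. All 3 passed when the outlying library was left out, at 3.28 (adjusted p = 0.045), 4.43 (0.0085) and 4.26 (0.012), and without its partner they also passed, at 6.95 (0.011), 4.43 (0.0081) and 4.26 (0.012). Without the outlying library Dusp2 at 3.70 and Dusp8 at 3.57 had larger log2 changes than Dusp5 in Socs1-/- cells. With the replicate block within genotype its changes were 5.66 in Socs1-/- (SE 0.539, edgeR adjusted p = 0.0084), 4.67 in Ing4-/- (SE 0.488, 0.0069) and 4.26 in WT cells (SE 0.472, 0.011). Of the merged exon length, 22.1% (547 bases) overlaps the antisense gene AC137853.2. The kit is stranded, but the strand setting of the counting was not stated, so reads of the pair could be mixed.

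Dusp4 (ENSMUSG00000031530, chromosome 8, 34807297 to 34819894, plus strand), a nuclear phosphatase for ERK and JNK, had the highest level per exon length of the 10 at rest. LPS-treated Socs1-/- cells had 310 and 266.2 CPM, against 37.3 and 52.3 in untreated ones. The Ing4-/- values were 232 and 272.5 CPM after LPS, against 78.5 and 196.4 untreated, and those of WT 255.7 and 166.3 CPM after LPS, against 110.8 and 90.6 untreated. The 6 LPS libraries ranged from 166.3 to 310 CPM, and the untreated Socs1-/- libraries were the lowest of the 12. The log2 change was 2.69 in Socs1-/- cells (SE 0.416, edgeR adjusted p = 0.013), 0.88 in Ing4-/- cells (SE 0.393, adjusted p = 0.18) and 1.07 in WT cells (SE 0.395, adjusted p = 0.16). Its rise in Socs1-/- cells without the outlying library was 2.58 (SE 0.475, adjusted p = 0.0088). The call was lost without Socs1-/- untreated library 1 (0.13) or 2 (0.082). The response of Socs1-/- cells minus that of WT cells was 1.62 on the log2 scale (SE 0.556, unadjusted p = 0.017, edgeR adjusted p = 1), so a difference between the genotypes was not called.

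**Figure D2:**
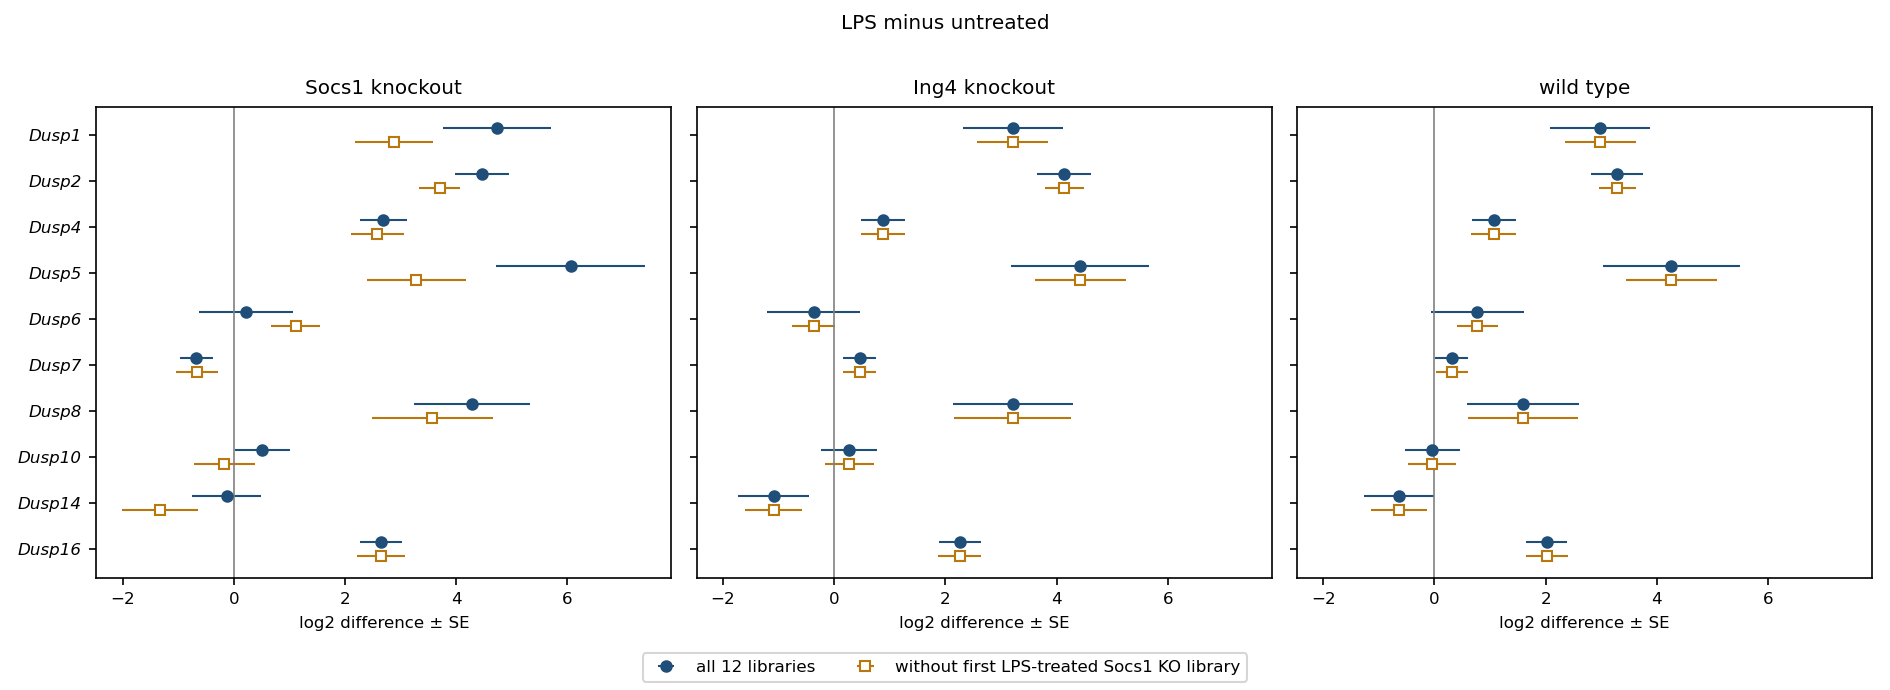
Log2 difference of LPS-treated minus untreated cells (x axis, ± SE from the edgeR fit) for each of the 10 genes in Socs1 knockout, Ing4 knockout and wild-type cells, with all 12 libraries (filled circles) and with the outlying library left out (open squares). With all libraries Dusp5 has the largest value and the widest error in each genotype, and in the Socs1 knockout the values of Dusp1 and Dusp5 are 2.88 and 3.28 without that library, against 4.73 and 6.06 with it.

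No LPS change of the cytoplasmic ERK phosphatases passed the test. Dusp6 (ENSMUSG00000019960, chromosome 10, 99263231 to 99267489, plus strand), a main feedback inhibitor of ERK, had 2.57 and 27.9 CPM in LPS-treated Socs1-/- cells, against 7.46 and 18.5 in untreated ones. It had 10.6 and 13.3 CPM in LPS-treated Ing4-/- cells, against 14.8 and 16.2 untreated, and 48.3 and 66.8 CPM in LPS-treated WT cells, against 38.9 and 28.8 untreated. Its log2 changes were 0.22 (SE 0.843) in Socs1-/- cells, -0.37 (SE 0.844) in Ing4-/- cells and 0.77 (SE 0.833) in WT cells. None passed, at edgeR adjusted p = 0.93, 0.82 and 0.64. Without the outlying library the value in Socs1-/- cells was 1.11 (SE 0.449, adjusted p = 0.14). Dusp7 (ENSMUSG00000053716, chromosome 9, 106368632 to 106375724, plus strand) had 10.6 and 11 CPM in LPS-treated Socs1-/- cells, against 15.9 and 18.8 in untreated ones. In Ing4-/- cells it had 17.7 and 34.4 CPM after LPS, against 17.5 and 20.4 untreated, and in WT cells 25.9 and 32.4 CPM, against 25.6 and 21.2 untreated. Its log2 changes of -0.68 (SE 0.297), 0.46 (SE 0.293) and 0.31 (SE 0.292) did not pass (edgeR adjusted p = 0.29, 0.34 and 0.57). Nor did they without the outlying library, at -0.66 (SE 0.373), 0.46 and 0.32 (adjusted p = 0.28, 0.32 and 0.54).

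The remaining members were scarce. Dusp8 (ENSMUSG00000037887, chromosome 7, 142079490 to 142095843, minus strand), which prefers JNK and p38, had 208 and 66 counts in LPS-treated Socs1-/- cells, against 3 and 10 in untreated ones. It had 65 and 5 counts in LPS-treated Ing4-/- cells, against 5 and 3 untreated, and 22 and 17 counts in LPS-treated WT cells, against 6 and 9 untreated. Only the LPS-treated Socs1-/- and WT groups had at least 10 counts in both libraries, so the gene passed the filter through groups where it was high. The log2 change was 4.28 in Socs1-/- cells (SE 1.04, edgeR adjusted p = 0.084), 3.21 in Ing4-/- cells (SE 1.08, 0.095) and 1.59 in WT cells (SE 1.01, 0.39). Leaving out the outlying library gave 3.57 in Socs1-/- cells (SE 1.09) and made these adjusted p 0.058, 0.063 and 0.34. The Ing4-/- value rests on LPS library 1, and it was 0.61 without that library (adjusted p = 0.78) and 4.07 without LPS library 2 (0.052). Without Ing4-/- LPS library 1 or 2 the Socs1-/- value, unchanged at 4.28, was called (0.028 and 0.026), as it was with the replicate block within genotype (4.22, SE 0.758, edgeR adjusted p = 0.034). Of its merged exon length, 1.36% overlaps the antisense gene Gm32786. Dusp10 (ENSMUSG00000039384, chromosome 1, 184013302 to 184075636, plus strand), another JNK and p38 phosphatase, ranged from 1.05 to 3.1 CPM over the LPS libraries and from 1.01 to 2.26 CPM over the untreated ones. Its log2 changes of 0.51, 0.27 and -0.04 in Socs1-/-, Ing4-/- and WT cells had SEs of 0.492, 0.504 and 0.491. Dusp14 (ENSMUSG00000018648, chromosome 11, 84048041 to 84069261, minus strand) ranged from 0.484 to 1.79 CPM after LPS and from 1.26 to 1.57 CPM untreated. The highest value after LPS was in the outlying library, and the next was 1.37 CPM in WT. Its log2 changes were -0.13 (SE 0.621), -1.09 (SE 0.639) and -0.64 (SE 0.629). None of these changes of Dusp10 and Dusp14 passed (edgeR adjusted p = 0.3 to 0.97). Without the outlying library the Socs1-/- values were -0.17 for Dusp10 (SE 0.545, adjusted p = 0.88) and -1.32 for Dusp14 (SE 0.683, 0.23), so both lay below 0, against 0.51 and -0.13 with it.

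Over all genotypes, 4 members (Dusp1, Dusp2, Dusp5 and Dusp16) had all 6 LPS libraries above all 6 untreated ones, which held for 7.7% of tested genes. Within a genotype the LPS libraries were both above the untreated pair for 6 of 10 members in Socs1-/- cells (22.5% of genes), 6 in Ing4-/- cells (29.1%) and 8 in WT cells (30.7%). They were both below for 1 (20%), 2 (28.6%) and 0 (30.7%). At an unadjusted p under 0.05, 7, 5 and 5 members differed by edgeR, beside 17%, 28.2% and 22.6% of tested genes. DESeq2 called 6, 5 and 4 members, where it called 832, 2166 and 1415 genes in all. The number of genes that DESeq2 tested was not counted, so no share is given. The authors' deposited table of genes changed in WT cells, which lists 867 genes, holds Dusp1, Dusp2, Dusp5 and Dusp16. In the authors' deposited table their log2 fold changes of LPS over untreated, which are smaller than the log2 ratios of the group means in that table, are 2.04, 2.84, 1.77 and 1.82, with adjusted p of 0.0022, 5.5e-11, 0.026 and 1.1e-05.

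Scaled by length, the make-up of the family differed between LPS-treated and untreated libraries. The summed level of the 10 genes was 495.7 and 192.4 CPM per kb of merged exon in LPS-treated Socs1-/- cells, against 31.6 and 40.1 in untreated ones. It was 191.3 and 248.9 CPM per kb in LPS-treated Ing4-/- cells, against 47.1 and 95.6 untreated, and 199.7 and 206.3 CPM per kb in LPS-treated WT cells, against 71.7 and 60.9 untreated. In untreated WT cells the order of length-scaled levels was Dusp4 (mean 36.7 CPM per kb, libraries 33.1 and 40.4), Dusp6 (10.8, 9.18 and 12.4), Dusp7 (6.98, 6.33 and 7.63) and Dusp16 (3.48, 3.28 and 3.67), none of which overlapped. Dusp1, Dusp5 and Dusp2 followed with overlapping libraries and means of 2.42, 2.32 and 2.05 CPM per kb, then Dusp14 and Dusp10, also overlapping, at 0.746 and 0.668, and Dusp8 last at 0.0689. After LPS, Dusp5 (mean 44.5 CPM per kb, libraries 38.5 and 50.6) stood second to Dusp4 (77, 60.7 and 93.3) in WT cells. Dusp2, Dusp1, Dusp6 and Dusp16 followed at 20, 19, 18.4 and 14.1 CPM per kb, each overlapping its neighbour. In Ing4-/- cells Dusp4 led both orders, with a mean of 92.1 CPM per kb after LPS, against 50.2 untreated. After LPS in those cells came Dusp5, Dusp1 and Dusp2 at 47.1, 32.5 and 24.7, with overlap between neighbours. In untreated Ing4-/- cells Dusp7 and Dusp6 came next at 5.65 and 4.94, and their libraries did not overlap. Dusp4 also led in Socs1-/- cells, with a mean of 105.1 CPM per kb after LPS, against 16.3 untreated, but after LPS its libraries (97.2 and 113.1) lay within those of Dusp5 (13.7 and 174.5). The lowest place was held by Dusp8 in 5 of the groups and by Dusp14 in LPS-treated Socs1-/- cells, where its libraries overlapped those of Dusp10. In LPS-treated Ing4-/- cells the lowest place is not distinct, since the Dusp8 libraries (0.634 and 0.0568) overlapped those of Dusp14 (0.293 to 0.455).

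**Figure D3:**
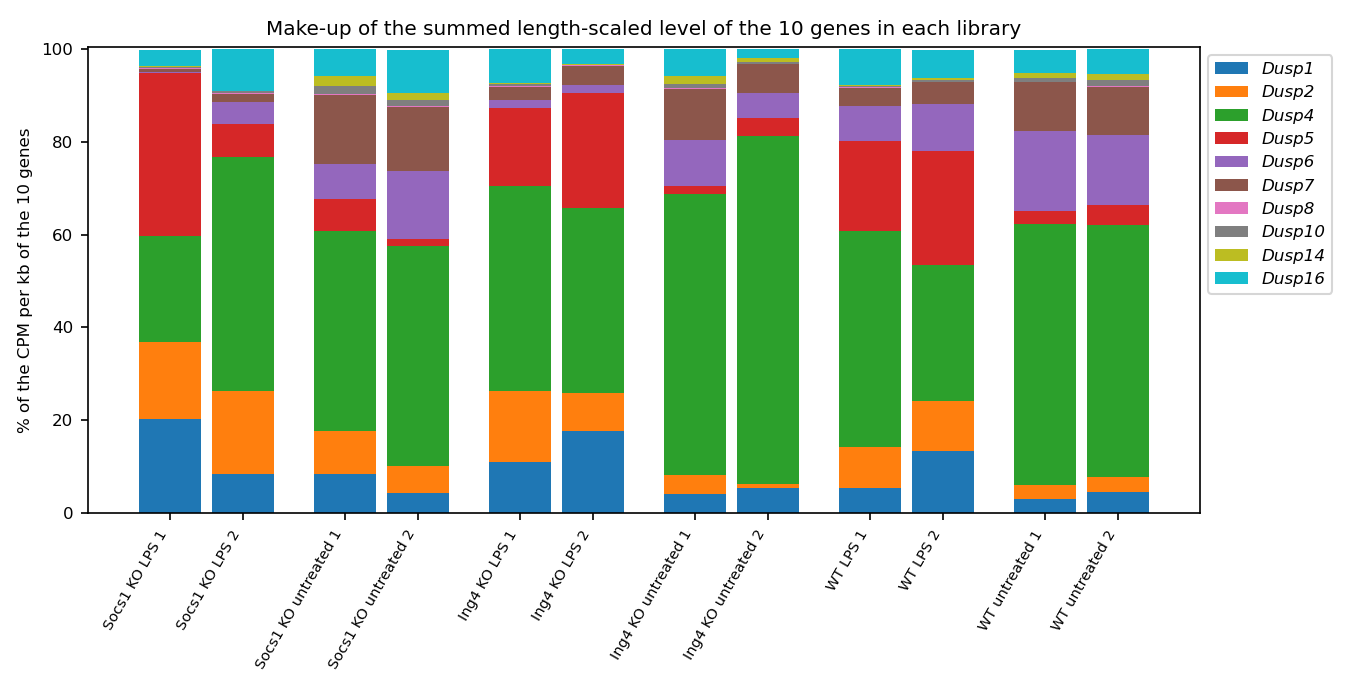
Share (%) of each of the 10 genes in their summed CPM per kb of merged exon, one bar per library. Dusp4 makes up 43% to 75% of the sum in untreated libraries, and Dusp5 takes 7.13% to 35.2% in LPS-treated ones.

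Dusp5 made up 35.2% and 7.13% of the length-scaled sum in LPS-treated Socs1-/- cells, against 7.04% and 1.4% in untreated ones. Its share was 16.8% and 24.9% in LPS-treated Ing4-/- cells, against 1.57% and 3.8% untreated, and 19.3% and 24.5% in LPS-treated WT cells, against 2.7% and 4.45% untreated. Dusp6 took a smaller share after LPS, with 0.165% and 4.63% in LPS-treated Socs1-/- cells, against 7.53% and 14.7% untreated. Its share was 1.78% and 1.7% in LPS-treated Ing4-/- cells, against 10% and 5.4% untreated, and 7.72% and 10.3% in LPS-treated WT cells, against 17.3% and 15.1% untreated. A share falls when other members rise, and the CPM of Dusp6 itself was higher in both LPS-treated WT libraries than in the untreated ones.

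The LPS-treated Socs1-/- libraries differed from each other for 7 of the 10 members by more than a log2 of 1. In the outlying library Dusp5 was 12.7-fold higher than in its partner (log2 of 3.67) and Dusp1 6.23-fold higher (2.64), while Dusp6 was 10.5-fold lower (-3.39). Of all tested genes, 2.66% were higher by more than a log2 of 2 in the outlying library and 4.75% were lower by as much. Dusp14, Dusp2, Dusp8 and Dusp10 were 3.14-, 2.39-, 2.25- and 2.13-fold higher. Of all tested genes, 10.9% were higher by more than a log2 of 1 and 11% were lower by as much. Dusp4, Dusp7 and Dusp16 differed by 1.16-, 1.04- and 1.01-fold. The cause of these differences was not tested.

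**Figure D4:**
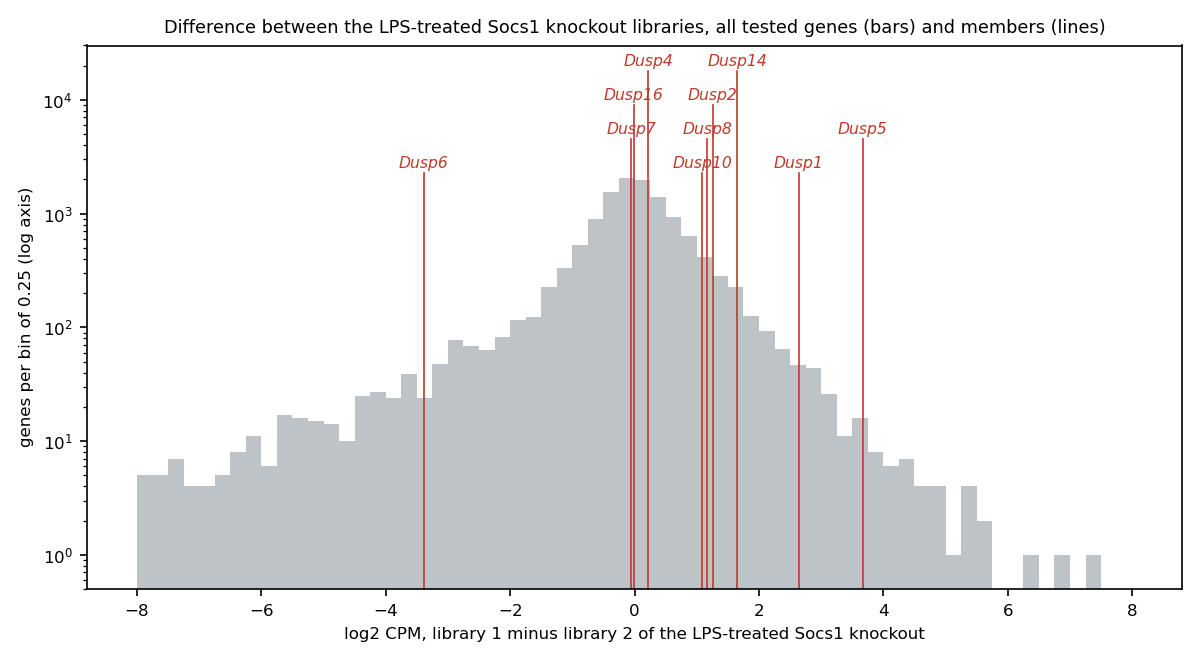
Number of tested genes (y axis, log scale) by the log2 CPM of library 1 minus library 2 of the LPS-treated Socs1 knockout (x axis, bins of 0.25; values beyond 8 in either direction are placed in the end bins), with red lines at the 10 members. Dusp5 and Dusp1 lie in the right tail at 3.67 and 2.64, Dusp6 lies in the left tail at -3.39, and Dusp4, Dusp7 and Dusp16 lie near 0.

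Between genotypes, no member was called by the edgeR fit without a block, with all 12 libraries or without the outlying library. For Dusp6 the 8 knockout libraries, with or without LPS, ranged from 2.57 to 27.9 CPM and the 4 WT libraries from 28.8 to 66.8 CPM. These ranges nearly met, and the share of all tested genes that separate in this way was not counted. Dusp7 was below WT in both LPS-treated Socs1-/- libraries. After LPS, 0 of 10 members were called in Socs1-/- against WT cells (0.0626% of tested genes were) and 0 of 10 in Ing4-/- against WT cells (0.102%). Untreated, the counts were 0 of 10 in Socs1-/- (0.047%) and 0 of 10 in Ing4-/- cells (0.141%). Without the outlying library, the background was 0% and 0.302% of tested genes after LPS and 0.181% and 0.347% untreated, in Socs1-/- and Ing4-/- cells. At an unadjusted p under 0.05 the edgeR counts were 3 and 1 after LPS (10.6% and 7.09% of tested genes) and 1 and 0 untreated (5.15% and 5.25%), in the same order. DESeq2 called 2 members in LPS-treated Socs1-/- cells, where it called 225 genes in all. It called 0 members in the other comparisons, with 137 genes in LPS-treated Ing4-/-, 90 in untreated Socs1-/- and 132 in untreated Ing4-/- cells. Here too the number of genes that DESeq2 tested was not counted. With the replicate block within genotype 2 members were called in LPS-treated Socs1-/- against WT cells (4.14% of tested genes). That block called 0 members in LPS-treated Ing4-/- (2.83%), 0 in untreated Socs1-/- (1.65%) and 0 in untreated Ing4-/- cells (2.2%). The spread that same-numbered libraries share is left out of the error of that fit, which makes its p-values between genotypes too small.

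Dusp7 after LPS stood at 10.6 and 11 CPM in Socs1-/- cells and at 25.9 and 32.4 CPM in WT cells. These libraries did not overlap, and the log2 difference was -1.43 (SE 0.3, unadjusted p = 0.00095, edgeR adjusted p = 0.16). It was -1.41 without the outlying library and -1.46 without its partner, each with 1 LPS-treated Socs1-/- library. DESeq2 gave -1.44 (SE 0.336, adjusted p = 0.0033) and the block within genotype -1.43 (SE 0.235, edgeR adjusted p = 0.032). Dusp2 after LPS had 165.1 and 68.9 CPM in Socs1-/- cells and 35.3 and 44.8 CPM in WT cells, a log2 difference of 1.55 (SE 0.426, edgeR adjusted p = 0.26). It was 0.78 without the outlying library and 2.04 without its partner, again with 1 LPS-treated Socs1-/- library each. DESeq2 gave 1.54 (SE 0.435, adjusted p = 0.03) and the block within genotype 1.43 (SE 0.233, edgeR adjusted p = 0.031). The authors' deposited table for this comparison, with 183 genes, lists Dusp7 at -1.32 (adjusted p = 0.0028) and Dusp2 at 1.38 (adjusted p = 0.023) as log2 fold changes of knockout over WT. The authors' deposited tables for the other 3 comparisons of a knockout with WT hold no member.

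Dusp6 after LPS had 10.6 and 13.3 CPM in Ing4-/- cells and 48.3 and 66.8 CPM in WT cells, a log2 difference of -2.27 (SE 0.873, unadjusted p = 0.03, edgeR adjusted p = 0.68). With the outlying library left out the difference was the same and its SE was 0.393 (unadjusted p = 0.00032, adjusted p = 0.07), and with only the compared groups in the fit it was -2.29 and called (SE 0.241, adjusted p = 0.0095). Untreated, Dusp6 had 14.8 and 16.2 CPM in Ing4-/- cells and 38.9 and 28.8 CPM in WT cells (-1.13, SE 0.844, edgeR adjusted p = 1). The fit to those groups alone called this too (-1.13, SE 0.213, adjusted p = 0.036). The share of all tested genes called by these fits to the compared groups alone was not counted. In Socs1-/- cells the difference from WT was -1.93 after LPS (SE 0.862, edgeR adjusted p = 0.48) and -1.38 untreated (SE 0.851, adjusted p = 1). The difference after LPS was -1.04 without the outlying library and -4.49 without its partner. With the partner left out the LPS-treated Socs1-/- group is the outlying library alone. Calls against WT cells in that setting are therefore not read as a difference between genotypes.

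The other members differed less clearly between genotypes. Untreated Dusp4 had 37.3 and 52.3 CPM in Socs1-/- cells and 110.8 and 90.6 CPM in WT cells (-1.17, SE 0.397, unadjusted p = 0.016, edgeR adjusted p = 0.75). Dusp8 after LPS had a log2 difference of 2.57 between Socs1-/- and WT cells (SE 0.936, edgeR adjusted p = 0.39), and 1.86 without the outlying library (SE 1.02, adjusted p = 0.54). Dusp1 and Dusp5 after LPS changed direction with the library left out: the log2 differences of Socs1-/- from WT cells were 1.62 and 1.08 with all libraries and -0.23 and -1.70 without the outlying library, and none was called. Untreated, the Ing4-/- libraries both lay below the WT pair for 6 of 10 members (20.1% of tested genes) and the Socs1-/- libraries for 5 of 10 (20.4%), with 1 above in Socs1-/- cells (19%). After LPS the Socs1-/- libraries both lay above the WT pair for 4 members (16.8% of tested genes) and below it for 2 (18%), and the Ing4-/- libraries below it for 1 (18.2%), Dusp6. In Ing4-/- against WT cells after LPS, Dusp1, Dusp2, Dusp4, Dusp5, Dusp7, Dusp8, Dusp10, Dusp14 and Dusp16 overlapped between the groups, with log2 differences between -0.43 and 0.77. The LPS response itself differed in 0 members between Socs1-/- and WT cells and in 0 between Ing4-/- and WT cells by edgeR and by DESeq2 (0% of tested genes by edgeR). Unadjusted p under 0.05 was reached by 2 members in the first of these (Dusp4 and Dusp7; 0.799% of tested genes) and 0 in the second (0.415%).

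**Figure D5:**
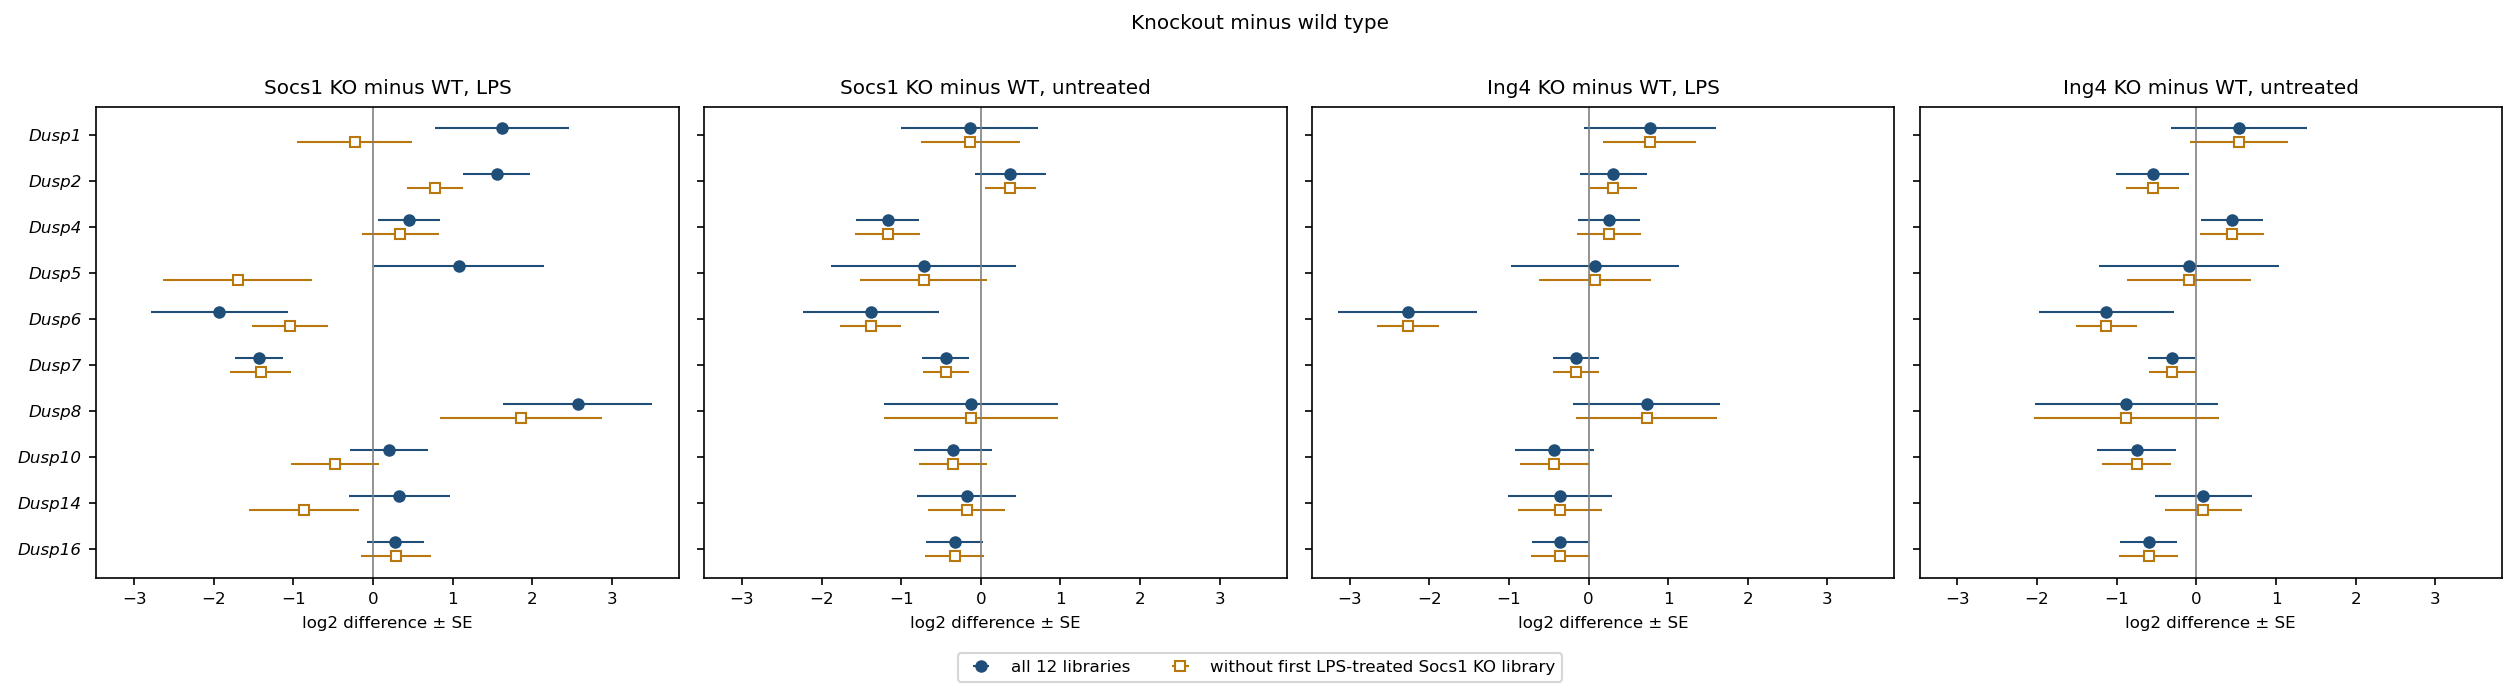
Log2 difference of knockout minus wild type (x axis, ± SE from the edgeR fit) for the 10 genes, after LPS and untreated, with all 12 libraries (filled circles) and with the outlying library left out (open squares). Dusp6 lies below 0 in all 4 panels, at -1.93, -1.38, -2.27 and -1.13 from left to right, and Dusp1 and Dusp5 cross 0 in the first panel when that library is left out.

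Across the 12 libraries several members varied together. The Pearson correlation of log2 CPM was 0.966 between Dusp1 and Dusp5, 0.94 between Dusp2 and Dusp16 and 0.905 between Dusp1 and Dusp2. Dusp6 and Dusp7 correlated at 0.608 with each other, and Dusp6 at -0.296 with Dusp1. The genes most like Dusp2 were Kdm6b, a histone demethylase (0.982), Sde2 (0.979) and Csrnp1 (0.971), and those most like Dusp16 were Actg1, a cytoplasmic actin (0.979), Ppp1r10 (0.974) and Lima1 (0.971). These values describe 12 libraries that share the same LPS contrast.

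The MAP kinases, on which these phosphatases act, were not among the genes called after LPS with all 12 libraries and no block. In that fit 1.57%, 4.73% and 1.89% of tested genes rose in Socs1-/-, Ing4-/- and WT cells, and 0.407%, 3.29% and 1% fell. Of 10 tested MAP kinases and 7 MAP kinase kinases, which lie upstream of them, this edgeR fit called 0 in any genotype after LPS. At an unadjusted p under 0.05 the MAP kinases gave 0 in Socs1-/-, 0 in Ing4-/- and 1 in WT cells, and the MAP kinase kinases gave 0, 4 and 3. Of all tested genes, 17%, 28.2% and 22.6% reached that level in the same order. Of 21 MAP kinase kinase kinases, 1 fell in Socs1-/- cells (Map3k1), 3 fell in Ing4-/- cells (Map3k1, Map3k3 and Map3k9) and 1 fell in WT cells (Map3k1). Tab2, an adaptor of the kinase TAK1 counted in that list, rose in Ing4-/- cells. Map3k1, an activator of the JNK arm, had 12.5 and 17 CPM in LPS-treated WT cells, against 51.1 and 45.9 untreated, a log2 change of -1.72 (SE 0.255, edgeR adjusted p = 0.012). Among 25 tested transcription factors and other early genes that respond to MAP kinases, 6 rose in Socs1-/- cells, 5 rose and 1 fell (Etv5) in Ing4-/- cells and 6 rose in WT cells. Atf3, Ier3, Junb and Maff rose in all 3 genotypes, Jund in Socs1-/- and WT cells, Myc in Ing4-/- and WT cells and Srf in Socs1-/- cells. Ier3, an immediate early gene, had 570.2 and 748.8 CPM in LPS-treated WT cells, against 31.4 and 37.4 untreated (log2 change 4.26, SE 0.308, edgeR adjusted p = 0.00049). Atf3, a stress-induced repressor, had 551 and 834.3 CPM in LPS-treated WT cells, against 45.6 and 60.3 untreated (3.71, SE 0.427, edgeR adjusted p = 0.004). Jund, an AP-1 subunit, had 127.5 and 180.2 CPM in LPS-treated WT cells, against 38.9 and 58.2 untreated (1.66, SE 0.291, edgeR adjusted p = 0.026).

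Of 17 other tested dual-specificity phosphatases, edgeR with all 12 libraries and no block called 0 after LPS in each genotype. Their median log2 changes were -0.31, -0.28 and -0.15 in Socs1-/-, Ing4-/- and WT cells. At an unadjusted p under 0.05 the counts of this list were 0, 1 and 0, beside 17%, 28.2% and 22.6% of tested genes. The 9 tested other feedback inhibitors of ERK had 0 calls in each genotype (unadjusted 3, 5 and 3), and so did 9 scaffold genes (unadjusted 1, 3 and 2). Among 9 kinases activated by MAP kinases, Mapkapk2, a target of p38, rose in Ing4-/- cells.

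With the outlying library left out more genes of these lists were called, and those named next were chosen after their values were seen. In that setting 11.2% of 13262 tested genes rose and 9.25% fell in Ing4-/- cells, and 7.79% rose and 6.69% fell in WT cells. Calls in Socs1-/- cells rest on 1 LPS library in that setting, so their counts per list are left out. The share of genes that rose there is given with the members. Mapk8, which encodes JNK1, then rose in WT cells. Map2k4, an activator of JNK, rose in all 3 genotypes, Map2k6, an activator of p38, fell in Ing4-/- and WT cells, and Map2k5 fell in Ing4-/- cells. Of the 21 MAP kinase kinase kinases and adaptors, 4 rose and 6 fell in Ing4-/- cells and 3 rose and 3 fell in WT cells. Map3k8, the kinase TPL2 that links LPS to ERK, Map3k20 and Tab2 were higher in all 3 genotypes, and Map3k1, Map3k4 and Map3k9 lower. Of the other feedback inhibitors of ERK, 2 rose and 1 fell in Ing4-/- cells and 1 rose and 1 fell in WT cells. Errfi1, an inhibitor of the EGF receptor, rose by 1.77 in Socs1-/- (edgeR adjusted p = 0.0034), 3.37 in Ing4-/- (8.3e-05) and 2.89 in WT cells (0.00021). Nf1 rose in Socs1-/- cells, Spred1 rose in Ing4-/- cells and Spred2 fell in Ing4-/- and WT cells. Among the scaffolds only Spag9, which holds JNK and p38, was called, and it rose in all 3 genotypes (1.16, 0.88 and 1.01, edgeR adjusted p = 0.037, 0.048 and 0.036). Mapkapk2 and Rps6ka2 rose and Mknk2 and Rps6ka5 fell in all 3. In that setting 10 of the 25 MAP kinase-responsive genes rose and 2 fell in Ing4-/- cells, and 7 rose and 1 fell in WT cells. Of 18 other dual-specificity phosphatases tested in that setting, 0 were called in Ing4-/- and 0 in WT cells.

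The replicate block within genotype, with all 12 libraries, also added calls and ended none of these lists' calls after LPS. Of all tested genes, 4.39%, 15.2% and 8.28% rose in Socs1-/-, Ing4-/- and WT cells with that block, and 1.63%, 12% and 5.9% fell. Of the MAP kinase-responsive genes, 12 rose in Socs1-/- cells, 12 rose and 1 fell in Ing4-/- cells and 9 rose and 1 fell in WT cells, with Srf, Myc and Jund now rising in all 3. Of the MAP kinase kinase kinases and adaptors, 4 fell in Socs1-/- cells, 4 rose and 7 fell in Ing4-/- cells and 3 rose and 2 fell in WT cells. The feedback inhibitor Spred3 and Spag9 rose in all 3 genotypes, Mapkapk2 and Rps6ka2 in Ing4-/- and WT cells, Mapk8 in WT cells, and Map2k1, Dusp11 and, falling, Spry2 were called in Ing4-/- cells.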

How the data were processed

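The authors deposited 1 table of read counts per gene for the 12 libraries of poly(A) RNA, made per the labels' protocols with a stranded kit. The submitters' processing notes name FastQC, HISAT, StringTie, HTSeq, DESeq2 and the human build GRCh38, without versions or settings, although every gene identifier is of mouse. The authors' deposited comparison tables give log2 fold changes and adjusted p-values, adjusted by a method that was not stated.

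From the counts, edgeR 4.0.16 (R 4.3.3, limma 3.58.1) was fitted to the 12 libraries with 1 mean per group, after filterByExpr with a minimum count of 10 and TMM scaling. The quasi-likelihood test used robust spread estimates, Benjamini-Hochberg adjustment covered every tested gene, and a gene was called at an adjusted p of 0.05. CPM are per TMM-scaled library, log2 CPM used a prior count of 2, and CPM per kb used merged exon lengths of GENCODE M21 (GRCm38), the source of the gene coordinates. SE is the log2 change divided by the square root of F. The common biological coefficient of variation was 0.289.

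A count of 3 corresponds to the limit that 0 counts allow, 0.143 CPM in the first untreated WT library, and such limits cover counting error only. Library pairs of 1 group correlated at 0.9258 for LPS-treated Socs1-/- cells and 0.9705 to 0.9869 for the other groups, and no pair matched within sampling noise. The labels number the libraries of a group 1 and 2 and do not say what a number shares. Deviations of same-numbered libraries from their group means correlated at 0.565 in Socs1-/-, 0.601 in Ing4-/- and 0.447 in WT cells (LPS-treated with untreated), and at -0.129 to 0.156 between genotypes (12 pairs). So, from the data and not the design, the numbers were taken to pair LPS-treated and untreated libraries within a genotype only. The alternatives tried were DESeq2 1.42.0, RLE scaling, no filter, only the compared groups, a replicate block (also within genotype) and each library left out.

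The members and gene lists were chosen with earlier results of these data known. Named beside the members were up to 3 called genes of each list in each direction with the smallest p in LPS-treated WT cells, and the 3 genes of highest correlation with each member called there.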

Additional observations from a re-analysis of the deposited data

Results flagged for a closer look

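Both LPS libraries lay below the untreated pair for 28.6% of tested genes in Ing4-/- cells and above it for 30.7% in WT cells. Genes with both patterns were not counted. For Dusp6 the LPS libraries lay on opposite sides of their untreated pair in these genotypes, with a log2 change of -0.37 in Ing4-/- cells and 0.77 in WT cells. The difference between those responses was -1.14 (SE 1.19, edgeR unadjusted p = 0.36, adjusted p = 1), and with the first of the LPS-treated Socs1-/- libraries left out its SE was 0.534 (adjusted p = 1).

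In Socs1-/- cells both LPS libraries lay below the untreated pair for 20% of tested genes. Dusp7 did so there, with a log2 change of -0.68, and lay above the pair in WT cells, with 0.31. That difference was -1 (SE 0.416, edgeR unadjusted p = 0.04, adjusted p = 1) and did not pass.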

How the results depend on the processing

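How many members were called after LPS moved with the fit, in the order Socs1-/-, Ing4-/- and WT cells. DESeq2 called 6, 5 and 4, the replicate block within genotype 6, 4 and 4, the fit to the compared groups alone 0, 4 and 5, and the fit with no filter on low counts 6, 6 and 5. For DESeq2 and for the fit to the compared groups alone, the share of all tested genes called was not counted. Leaving out 1 library gave 1 to 5, 1 to 4 and 0 to 4. RLE scaling and the replicate block across all groups left all counts of calls within 1.5 times. For a knockout against WT, members were called after LPS in Socs1-/- cells by DESeq2 (2), by the replicate block within genotype (2: Dusp2 with edgeR adjusted p = 0.031 and Dusp7 with 0.032) and with no filter (6). Leaving out 1 library gave calls there only where the outlying library alone was kept in the LPS-treated Socs1-/- group. In Ing4-/- cells the fit to the compared groups alone called 1 after LPS and 1 untreated, and so did no filter (1 and 1). No filter also called 2 in untreated Socs1-/- cells and 3 in the difference of LPS response between Socs1-/- and WT cells. That fit held 23947 genes, 3167 of them with no valid F in the WT comparison, so its counts are not used. With 1 library left out, the other comparisons of a knockout with WT stayed at 0 to 0.

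The log2 change of Dusp6 in Socs1-/- cells turned to -0.35 under the replicate block within genotype. With 1 library left out, values that passed no test changed sign: Dusp6 in Socs1-/- cells ranged from -2.33 to 1.11, Dusp14 there from -1.32 to 0.49, Dusp7 in Ing4-/- cells from -0.10 to 0.86, and Dusp10 from -0.17 to 0.96 in Socs1-/-, -0.20 to 0.62 in Ing4-/- and -0.48 to 0.29 in WT cells. The causes were not tested. Beyond the calls it added, the replicate block within genotype changed no call of a member. Depth limits Dusp8, Dusp10 and Dusp14, whose lowest counts were 3, 19 and 9.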

Other observations

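Dusp9, another cytoplasmic ERK phosphatase that is not among the 10 and was picked after its values were seen, was nearly absent from Ing4-/- cells. It had 1 and 0 counts in LPS-treated Ing4-/- cells and 29 and 34 in LPS-treated WT cells. Untreated, it had 0 and 2 counts in Ing4-/- cells and 53 and 52 in WT cells. In Socs1-/- cells the libraries differed, with 12 and 0 counts after LPS, against 18 and 3 untreated. With all 12 libraries and no block, edgeR did not call the Ing4-/- difference from WT (adjusted p = 0.36 after LPS and 0.34 untreated). With the replicate block within genotype, Dusp9 was called lower in Ing4-/- than in WT cells, after LPS and untreated. Of all tested genes, 2% and 1.53% were called lower there. The p-values of that fit between genotypes are too small, as stated above.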
